A study of Mus musculus with 6 samples.

Results

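Type 1 dendritic cells (DC1) formed a small cluster of the developing mouse lung, with 184 of the 61839 cells in the deposited annotation (0.298%). They were taken as all cells that the annotation assigned to DC1, the only cluster with that name among 34 cell types. They made up 1.56% of the 11818 myeloid cells, and 33 of 36 mice had at least 1 of them. The lungs of 36 C57BL/6 mice were dissociated whole, without sorting, and their cells were profiled by single-cell RNA sequencing (scRNA-seq), in which each messenger RNA molecule is counted once through its unique molecular identifier (UMI). Pups breathed room air with 21% O2 (normoxia) or 85% O2 (hyperoxia) from the day of birth, and lungs were taken on postnatal day (P)3, P7 or P14. Each of the 6 groups of age and oxygen held 6 mice. In the order normoxia and hyperoxia, the groups held 14 and 12 DC1 cells at P3, 24 and 23 at P7, and 48 and 63 at P14. The mice were multiplexed in 5 pools, with 3 mice from either oxygen level for each age present, and no pool held P14 mice together with another age.

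Conventional DC1 are antigen-presenting cells that take up material from dead cells and display its peptides to CD8+ T cells, a process called cross-presentation. They develop under the transcription factors *Irf8* and *Batf3* and the growth factor receptor *Flt3*, and they carry the chemokine receptor *Xcr1* and the dead-cell receptor *Clec9a*. In the lung most of them lie near airways and epithelium and also carry the integrin *Itgae* (CD103).

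Because the cluster is small, levels were computed from UMI counts summed over the DC1 cells of a mouse and are given as counts per 1000000 UMIs of that sum (CPM). The 26 mice with at least 3 DC1 cells entered, 14 of them normoxic and 12 hyperoxic, with 174 cells in all. Their sums ranged from 12680 to 161337 UMIs, with a median of 42678. At P3 only 3 normoxic and 2 hyperoxic mice qualified, at P7 5 and 4, and at P14 all 6 and 6. A DC1 cell had a median of 8647 UMIs and 2481.5 genes, against a median of 4462 UMIs over all cells. No cell barcode was shared between DC1 cells of different libraries, the sample barcode of the own mouse was the most frequent in 181 of 184 DC1 cells, and it held under 50% of the sample-barcode UMIs in 21. Counting error limits every value from so few cells. The p-values weigh a difference against the spread between mice, which includes this counting error.

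The label was first checked against markers of conventional DC1, as a description, since the same genes had shaped the cluster. *Xcr1* had a mean of 190 ± 159 CPM (SD, n = 26 mice), and the next highest of the other cell types, interstitial macrophages (Int Mϕ), had 1.14 CPM. *Clec9a* reached 246 ± 112 CPM against 24.5 CPM in DC2, the other dendritic cluster. The transcription factor *Irf8* had 1728 ± 397 CPM, above 876 CPM in DC2, and *Batf3* had 219 CPM against 181 CPM. *Flt3*, the receptor that dendritic cells need for growth, ranked second among the types with 170 CPM, behind DC2 with 219 CPM. *H2-Ab1*, the beta chain of an MHC class II molecule, had 8078 ± 1241 CPM against 1896 CPM in Int Mϕ. All 5 of these markers except *Flt3* were thus highest in DC1.

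In single cells, a UMI of *Xcr1* and of *Clec9a* was found together in 91 of the 184 cells, *Clec9a* alone in 60 and *Xcr1* alone in 18, while 15 cells had neither. At least 1 of *Xcr1*, *Clec9a*, *Flt3* and *Batf3* was found in 179 cells. *Xcr1* was seen in 59.2% of DC1 cells and in 0.0164% of general capillary cells (median 2623 UMIs per cell), which should lack it. At P3 *Xcr1* was seen in only 1 of 14 normoxic and 2 of 12 hyperoxic DC1 cells. *Clec9a* was seen in 12 and 11 of these P3 cells. *Cd8a*, which marks the resident DC1 of lymphoid organs, was seen in 3.26% of DC1 cells. The DC2 cluster stood apart through *Ccr7*, the receptor that guides dendritic cells to lymph nodes, with 4004 CPM and a UMI in 100% of its cells, and through the actin-bundling gene *Fscn1* with 1861 CPM. In DC1 cells *Ccr7* was at 2.28 CPM, with a UMI in 4 cells, and *Fscn1* had no UMI. *Cd209a*, *Sirpa* and *C1qb*, genes of other dendritic cells and macrophages, stood at 6.03, 6.66 and 7.98 CPM. Not all such genes were this low. *Mgl2* and *Clec10a*, both highest in Int Mϕ, had 30.4 and 16.4 CPM, each with a UMI in 12.5% of DC1 cells. *Lyz2*, highest in monocytes, had 343 CPM and a UMI in 82.6% of DC1 cells, against 122 CPM and 34.3% in capillary cells.

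**Figure D1:**
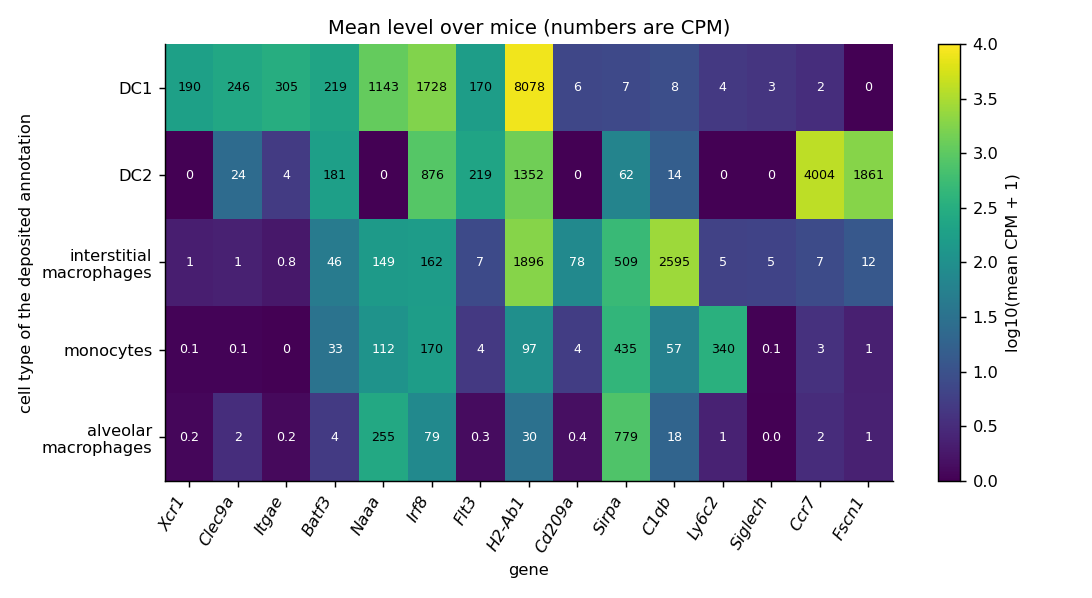
Mean level of marker genes (columns) in DC1 and 4 other myeloid types (rows), as mean CPM over mice that had 3 or more such cells, with color on a log10(mean CPM + 1) scale. *Xcr1*, *Clec9a*, *Itgae* and *Naaa* stand out in the DC1 row, and *Ccr7* and *Fscn1* in the DC2 row.

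Other genes set DC1 apart from every other type. Of 3615 genes with a UMI in at least 25% of DC1 cells, 174 had their highest mean in DC1, and 40 were more than 2-fold above the next type. The 15 with the largest ratio were, in that order, *Xcr1*, *Gcsam*, *Sept3*, *Ifi205*, *Clec9a*, *A530099J19Rik*, *Itgae*, *Hepacam2*, *Tlr3*, *Naaa*, *2310040G24Rik*, *H2-Ab1*, *Pianp*, *Slc25a20* and *Ciita*. *Itgae* had 305 CPM, against 36.1 CPM in γδ T cells. *Tlr3*, the endosomal sensor of double-stranded RNA, had 122 CPM in DC1 and 21.7 CPM in capillary cells. *Naaa*, a lysosomal amidase that breaks down fatty acid ethanolamides, had 1143 CPM against 255 CPM in alveolar macrophages. *Ciita*, the master activator of MHC class II genes, had 164 CPM against 42.6 CPM in the B cell 1 cluster. *Wdfy4*, a large scaffold protein that DC1 need for cross-presentation, had 562 CPM against 151 CPM in the same B cell cluster, and the protease inhibitor *Cst3* had 29782 CPM against 13735 CPM in DC2.

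RNA of other cells was present at low level. *Sftpc*, a surfactant gene of alveolar type 2 cells, had a UMI in 96.2% of DC1 cells and 91.9% of capillary cells, and the club cell gene *Scgb1a1* in 98.4% and 91.5%, with 523 and 599 CPM in DC1. These shares were similar in types that do not make the proteins, and neither gene is read as expressed in DC1. The T-cell gene *Cd3e* had no UMI in DC1, and *C1qb* of macrophages was seen in 2 cells.

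The first question was whether hyperoxia changed the share of DC1 among the recovered cells. As a percentage of all cells of a mouse, they made up, from lowest over median to highest, 0, 0.116 and 0.261% in normoxia and 0, 0.125 and 0.345% in hyperoxia at P3. At P7 the values were 0.0805, 0.202 and 0.474% in normoxia and 0, 0.204 and 0.414% in hyperoxia. At P14 they were 0.202, 0.346 and 0.495% in normoxia and 0.387, 0.737 and 0.859% in hyperoxia. The P14 groups overlapped, though the hyperoxic mice reached higher shares. The 3 mice without a DC1 cell had few enough cells to allow shares of up to 0.147, 0.262 and 2.40%, 3 cells being the limit that a count of 0 allows. The paper names bias from dissociation and low cell numbers as possible limits on counting cells by scRNA-seq.

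The mean DC1 share at P14 was 0.353 ± 0.140% in normoxia and 0.663 ± 0.222% in hyperoxia (SD, n = 6 mice each), a difference of 0.310 percentage points (exact permutation test, two-sided, p = 0.0238, adjusted p = 0.101 over 34 types and 3 ages). It did not pass the threshold of 0.05, while 32.4% of the 34 types did in the same comparison. The hyperoxic mean was higher in both P14 pools, by 0.226 and 0.395 percentage points, and with labels permuted within pools, as a block, the exact permutation test gave p = 0.015 and adjusted p = 0.0729. As a percentage of the myeloid cells of the mouse, the P14 means were 2.54 ± 1.02% and 3.11 ± 1.23% (exact permutation test, p = 0.407, adjusted p = 0.765). At P3 the means were 0.119 ± 0.0834% and 0.136 ± 0.119% (exact permutation test, p = 0.781, with 0% of types called), and at P7 0.238 ± 0.138% and 0.214 ± 0.149% (p = 0.771 by the exact permutation test, with 8.82% of types called). The effect at P14 exceeded that at P7 by 0.335 percentage points (permutation of oxygen labels within ages, p = 0.0328) and that at P3 by 0.294 (permutation, p = 0.0486), and neither passed after adjustment over 3 pairs of ages (adjusted p = 0.0728 for both).

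DC1 became a larger share of the recovered cells with age. In normoxia the mean share at P14 was 0.233 percentage points above that at P3 (exact permutation test, p = 0.00866, adjusted p = 0.0442), where 38.2% of types were called. As a percentage of immune cells the ratio of P14 to P3 was 2.21 and did not pass (exact permutation test, adjusted p = 0.0818). In hyperoxia the same step was 0.528 points (exact permutation test, p = 0.00216, the smallest this design allows, adjusted p = 0.0368), where 20.6% of types were called. The P14 share in hyperoxia was 0.450 points above P7 (exact permutation test, adjusted p = 0.0509, 0% of types called), and in normoxia 0.115 points above it (exact permutation test, adjusted p = 0.327, 8.82% of types called). From P3 to P7 the share differed by 0.118 points in normoxia (exact permutation test, adjusted p = 0.225, 11.8% of types called) and by 0.0779 in hyperoxia (exact permutation test, adjusted p = 0.599, 8.82% of types called). As P14 mice shared no pool with younger mice, age and pool cannot be told apart here.

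**Figure D2:**
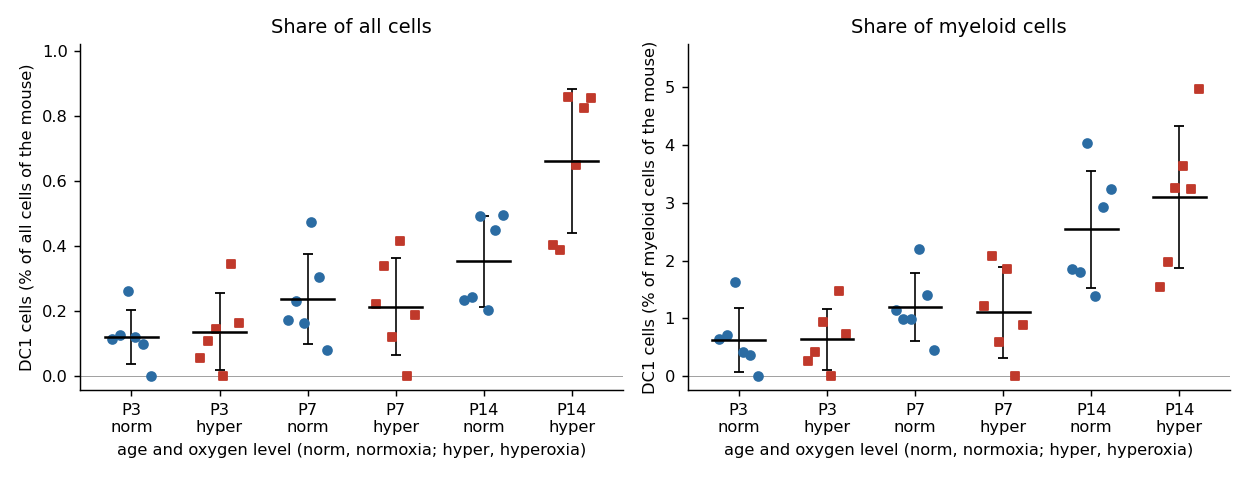
DC1 cells as a percentage of all cells (left) and of the myeloid cells (right) of each mouse, by age and oxygen, with 6 mice per group as points, the mean as a line and the SD as error bars. The left panel shows hyperoxic P14 mice between 0.387 and 0.859% and normoxic P14 mice between 0.202 and 0.495%, and in the right panel the 2 groups lie closer together.

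Gene expression in DC1 was then compared between oxygen levels across the 3 ages, with age in the model. No gene of 532 tested passed an adjusted p below 0.05 (0%, edgeR quasi-likelihood test with Benjamini-Hochberg adjustment), 84 had an unadjusted p below 0.05, and DESeq2 also called 0. The genes closest to the threshold with higher levels in hyperoxia were *Tubb5*, a tubulin (log2 fold change 0.97 ± 0.23 SE, adjusted p = 0.109), the creatine kinase *Ckb* (0.66 ± 0.17, adjusted p = 0.109) and *Basp1*, a membrane-bound signaling protein (0.90 ± 0.24, adjusted p = 0.117). Those with lower levels included the translation elongation factor *Eef1a1* (-0.37 ± 0.11, adjusted p = 0.139) and the ribosomal protein gene *Rps13* (-0.26 ± 0.08, adjusted p = 0.162). With genes kept at a lower minimum count (3 in place of 10), 4 of 1997 genes passed (0.2%), among them *Tubb5* with a log2 fold change of 0.94, and *Cdkn1a*, which met this filter mainly through hyperoxic mice.

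At P14, where all 12 mice entered and the spread was estimated over all 26 mice, 17 of 1077 genes passed (1.58%), 6 of them higher (0.557%) and 11 lower (1.02%) in hyperoxia, against 194 at an unadjusted p below 0.05. Within the P14 mice alone and with the pool as a block, 32 of 963 genes passed (3.32%), 15 of them among the 17. The balance of directions moved with the processing, from 6 higher and 29 lower with DESeq2 and 11 and 21 with the block to 33 and 7 with no count filter, 7 and 1 with a minimum count of 3, and 6 and 5 in P14 mice only. The genes that rose included the cell cycle inhibitor *Cdkn1a*, the surface glycoprotein *Plet1*, the galectin *Lgals1* and the calcium-binding protein *S100a6*, and those that fell included the interferon-γ receptor *Ifngr1*, the adhesion molecule *Cadm1* and ribosomal protein genes. The medians per cell, averaged over mice, were 7602 UMIs in normoxic and 10060 UMIs in hyperoxic P14 mice (exact permutation test over mice, p = 0.0238, adjusted p = 0.0714), and 2254 and 2731 genes (exact permutation test, p = 0.0152, adjusted p = 0.0455). The part of this difference in the gene results was not tested further than by thinning. When every cell was thinned to at most 3000 UMIs, *Lgals1* alone passed, out of 400 genes tested. The count was 9, with 6 higher and 3 lower, without hyperoxic mouse 2 of P14, and 12 without normoxic mouse 4 of P14. Leaving out hyperoxic mouse 3 or 5 of P3 left that group with 1 mouse, and 1504 and 1521 genes were tested in place of 1077. Over mice with at least 5 DC1 cells, 2435 genes were tested, with normoxic mouse 3 alone at P3. That fit also lost hyperoxic mouse 2 and normoxic mouse 4 of P14. The P3 mice do not enter the P14 difference itself. These fits tested other sets of genes than the main fit, and whether the 17 calls hold in them was not tested further.

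*Lgals1* encodes galectin-1, a secreted lectin that binds cell surface sugars and dampens T cells, and lies at chr15:78926725-78930465 on the plus strand (mm10). In normoxic P14 mice its level in DC1 was 173, 214 and 283 CPM (lowest, median and highest), and in hyperoxic P14 mice 476, 771 and 1260 CPM. All 6 hyperoxic mice were above all 6 normoxic mice. The log2 fold change was 1.78 ± 0.25 (edgeR, adjusted p = 6.76e-05). Means differed in the same direction in both pools, with log2 ratios of 2.22 and 1.50. In the other cells of the same mice *Lgals1* also stood higher, at 434 CPM in normoxia and 1184 CPM in hyperoxia, and the part of RNA from other cells in the DC1 values was not tested.

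*S100a6* (chr3:90612882-90624181, plus strand), a small calcium-binding protein of growing and stressed cells, had 56.6, 129 and 308 CPM in normoxia and 317, 545 and 1221 CPM in hyperoxia. The groups did not overlap, but the highest normoxic and the lowest hyperoxic mouse were close. Its log2 fold change was 2.05 ± 0.45 (edgeR, adjusted p = 0.0117), with log2 ratios of 1.12 and 3.32 in the 2 pools. *Cdkn1a* (chr17:29090976-29100727, plus strand) encodes p21, which halts the cell cycle by binding cyclin-dependent kinases. It had 0, 120 and 135 CPM in normoxia and 97.5, 366 and 930 CPM in hyperoxia, and 5 of 6 hyperoxic mice were above all normoxic mice. The log2 fold change was 2.07 ± 0.42 (edgeR, adjusted p = 0.00704), but *Cdkn1a* met the count filter only through hyperoxic P14 mice and so had to differ. With a minimum count of 3, which normoxic P14 mice also met, it was 2.14 ± 0.38 (edgeR, adjusted p = 0.000760). Both genes also stood higher in the other cells of hyperoxic P14 mice, *S100a6* at 1437 against 588 CPM and *Cdkn1a* at 665 against 160 CPM.

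*Plet1* (chr9:50494525-50505482, plus strand) encodes a surface glycoprotein of progenitor epithelium that alveolar macrophages and some dendritic cells also carry. It had 0, 119 and 162 CPM in normoxia and 231, 464 and 753 CPM in hyperoxia, without overlap. The log2 fold change was 2.38 ± 0.54 (edgeR, adjusted p = 0.0163), with log2 ratios of 2.94 and 2.07 in the pools. *Plet1* would not have met the count filter without the hyperoxic P14 mice, where it is high. With a minimum count of 3, which normoxic P14 mice also met, it was 2.44 ± 0.45 (edgeR, adjusted p = 0.00104). In 2 of 6 normoxic mice no UMI was found. The mean over the other cells of the same mice was 114.1 CPM in normoxia and 114.3 CPM in hyperoxia. A UMI of *Plet1* was found in 25.0% of 48 normoxic and 73.0% of 63 hyperoxic P14 DC1 cells, and in 9.76% and 58.7% after cells were thinned to 3000 UMIs, with 41 and 63 cells left. *Plet1* was also on the list of alveolar macrophage markers, where it gave 92.2% of the summed level in DC1. The summed level of that list was 0 to 212 CPM in normoxic and 251 to 785 CPM in hyperoxic P14 mice. *Ear1* and *Krt79* were the 2 of 8 members of the list without a UMI in DC1. *Ear2* had a UMI in 5.43% of DC1 cells, and *Chil3* had a median of 9.61 CPM in normoxic and 11.4 CPM in hyperoxic P14 mice.

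*Tspo*, a cholesterol-binding protein of the outer mitochondrial membrane, had 206, 320 and 483 CPM in normoxia and 496, 702 and 1286 CPM in hyperoxia (log2 fold change 1.12 ± 0.23, edgeR, adjusted p = 0.00704). *Smdt1*, a subunit of the mitochondrial calcium uniporter, had 206, 311 and 410 CPM and 412, 617 and 952 CPM (0.93 ± 0.20, edgeR, adjusted p = 0.0117). Neither overlapped between the groups, although the nearest mice lay close together. Over the 1077 genes, hyperoxic mice lay above all normoxic mice for 14 genes (1.30%) and below them for 8 (0.743%).

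Of the 4 genes with the largest increases at P14, promoters are shown for the 3 that the RefSeq table used here held (GRCm38.p6, 250 bases before to 50 after the start), to give their sequence context. Capitals mark a match, on either strand, to a TATA box (TATAAA, in 13.6% of 32851 promoters of this length), a CCAAT box (CCAAT, 37.4%), a GC box (GGGCGG, 35.7%), an AP-1 site (TGANTCA, 7.81%) or an ETS site (GGAAGT, 23.8%). The promoter of *Lgals1* was not analysed here.
Plet1, chr9:50494275-50494574, plus strand: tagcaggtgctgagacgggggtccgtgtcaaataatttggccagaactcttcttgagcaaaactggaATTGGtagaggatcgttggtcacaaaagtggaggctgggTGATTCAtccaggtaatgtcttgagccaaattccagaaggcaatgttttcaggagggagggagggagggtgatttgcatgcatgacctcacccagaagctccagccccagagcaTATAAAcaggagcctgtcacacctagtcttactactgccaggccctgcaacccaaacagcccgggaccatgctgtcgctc
Cdkn1a, upstream start, chr17:29090729-29091028, plus strand: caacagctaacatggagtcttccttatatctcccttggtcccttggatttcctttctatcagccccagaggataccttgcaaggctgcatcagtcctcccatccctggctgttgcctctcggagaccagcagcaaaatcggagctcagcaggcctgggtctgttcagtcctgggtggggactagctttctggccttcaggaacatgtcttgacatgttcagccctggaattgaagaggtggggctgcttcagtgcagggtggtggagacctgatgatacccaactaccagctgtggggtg
Cdkn1a, downstream start, chr17:29093519-29093818, plus strand: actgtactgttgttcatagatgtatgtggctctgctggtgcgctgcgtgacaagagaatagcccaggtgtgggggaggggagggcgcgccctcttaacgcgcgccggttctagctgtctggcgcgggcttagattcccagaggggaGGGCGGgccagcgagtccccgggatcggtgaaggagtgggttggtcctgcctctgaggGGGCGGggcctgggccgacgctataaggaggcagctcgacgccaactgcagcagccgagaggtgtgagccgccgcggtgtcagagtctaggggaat
S100a6, chr3:90612644-90612943, plus strand: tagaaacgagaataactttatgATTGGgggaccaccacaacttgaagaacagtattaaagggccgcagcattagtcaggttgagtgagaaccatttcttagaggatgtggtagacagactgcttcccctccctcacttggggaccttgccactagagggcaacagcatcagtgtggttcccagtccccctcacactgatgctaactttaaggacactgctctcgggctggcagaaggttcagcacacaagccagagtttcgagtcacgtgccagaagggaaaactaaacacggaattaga
The *Plet1* window held a TATA box, a CCAAT box and an AP-1 site, the downstream *Cdkn1a* window 2 GC boxes, and the *S100a6* window a CCAAT box, while the upstream *Cdkn1a* window held none of the 5 motifs. A match is a description of the letters and says nothing on whether a factor binds there.

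Among the genes that fell at P14, *Ifngr1* encodes the ligand-binding chain of the interferon-γ receptor, through which T cells and NK cells activate antigen-presenting cells (chr10:19591949-19610229, plus strand). It had 297, 434 and 596 CPM in normoxia and 103, 203 and 230 CPM in hyperoxia, and every hyperoxic mouse lay below every normoxic mouse. The log2 fold change was -1.24 ± 0.24 (edgeR, adjusted p = 0.00704), with log2 ratios of -1.78 and -0.72 in the 2 pools. *Cadm1*, an adhesion molecule of DC1 that binds Crtam on activated T cells, had 319, 368 and 515 CPM and 139, 214 and 293 CPM (-0.91 ± 0.23, edgeR, adjusted p = 0.0354), again without overlap. It did not pass in 9 of 26 alternatives. Among them were a minimum count of 3 (-0.84 ± 0.26, adjusted p = 0.163 by edgeR) and leaving out hyperoxic mouse 2 of P14. *Fam129a*, a stress-response gene, had 223, 289 and 308 CPM and 97.5, 181 and 223 CPM (-0.75 ± 0.20, edgeR, adjusted p = 0.0387), and with the pool as a block it did not pass (adjusted p = 0.0521). In the other cells of these mice *Ifngr1* had 172 CPM in normoxia and 127 CPM in hyperoxia, and *Cadm1* 97.0 and 48.7 CPM.

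The remaining 8 genes that fell at P14 encode ribosomal proteins, and with a minimum count of 3 none of 80 ribosomal protein genes tested passed by edgeR (22 at an unadjusted p below 0.05). They included *Rpl17* (log2 fold change -0.62), *Fau* (-0.52), *Rps14* (-0.51), *Rpl27a* (-0.46) and *Rps13* (-0.46), and also *Rps16*, which ranked below the 10 genes that were to be named. Of 85 ribosomal protein genes, a list added after these values had been seen, 76 were tested, 8 fell and 0 rose, where 1.02% of all genes tested fell, and the median log2 fold change was -0.31, against 0.02 over all genes tested. Their summed level was 199373 to 271387 CPM (median 222444) in normoxic and 160545 to 209988 CPM (median 194159) in hyperoxic P14 mice, so that the groups overlapped. These genes have near-identical copies and pseudogenes between which counting can split reads, and their single values are uncertain.

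**Figure D3:**
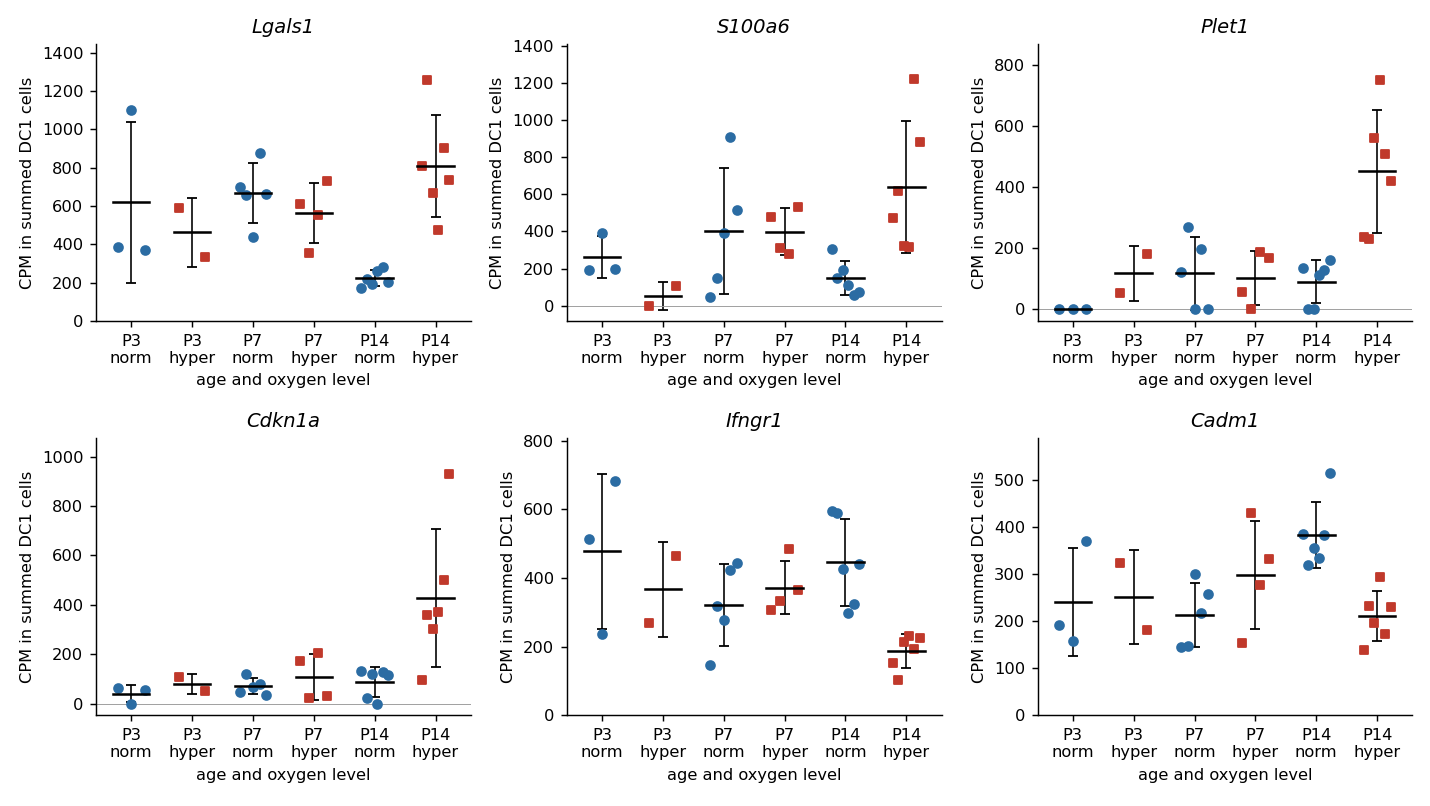
Level of 6 genes in the summed DC1 cells of each mouse, as CPM on linear axes, by age and oxygen, with mice as points, the mean as a line and the SD as error bars. At P14 the hyperoxic mice lie above the normoxic mice for *Lgals1*, *S100a6* and *Plet1* without overlap, and below them for *Ifngr1* and *Cadm1*, and P3 groups hold 3 and 2 mice.

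The functional gene lists were then read at P14. None of the 5 DC1 markers passed, with log2 fold changes of 0.08 ± 0.36 for *Xcr1*, -0.20 ± 0.30 for *Clec9a*, -0.03 ± 0.18 for *Irf8*, -0.13 ± 0.27 for *Flt3* and -0.07 ± 0.13 for *H2-Ab1* (edgeR, adjusted p between 0.789 and 0.982). Of 24 DC1 identity genes, 17 were tested, and *Cadm1* fell, where 1.58% of all genes tested passed and 1.02% fell. At a minimum count of 3, 23 of them were tested and 0 passed by edgeR, with 1 at an unadjusted p below 0.05. Of 15 MHC class II presentation genes, 8 were tested and 0 passed, with a median log2 fold change of -0.08. *H2-Aa*, the alpha chain that pairs with *H2-Ab1*, had medians of 8834 CPM in normoxia and 7230 CPM in hyperoxia (-0.32 ± 0.11, edgeR, adjusted p = 0.107), and *Cd74*, the invariant chain, had 0.04 ± 0.14. Of 24 MHC class I presentation genes, 15 were tested and 0 passed, with a median of 0.23. Of 20 genes for receptors and sensing, 3 were tested and *Ifngr1* fell. None of the 4 maturation and migration genes, 2 interferon response genes or 9 oxidative stress genes that could be tested passed. Interval widths differ between these genes, and a missed threshold does not show equal levels.

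Genes of the respiratory chain leaned upward without passing singly. Of 35 oxidative phosphorylation genes, 32 were tested and 0 passed, 26 had a log2 fold change above 0, and the median was 0.28 against 0.02 over all genes. Their summed level was 10368 to 13776 CPM in normoxic and 13834 to 16407 CPM in hyperoxic P14 mice. All 6 hyperoxic sums were above the 6 normoxic ones, but the nearest sums were close together. The same sum over the other cells of these mice was 11248 CPM in normoxia and 15814 CPM in hyperoxia. Of 18 dissociation stress genes, which rise when tissue is digested, 17 were tested and 0 passed, with a median of -0.35.

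Proliferation genes had a similar lean. Of 28 on the list, 16 were tested and 0 passed by edgeR, and 14 had a log2 fold change above 0. An unadjusted p below 0.05 was found for 6 of the 16, against 194 of all 1077 genes. The median was 0.91, against 0.02 over all genes. At P14 with a minimum count of 3, 28 were tested and 0 passed by edgeR, with 11 at an unadjusted p below 0.05. Over all ages, 5 were tested in the main fit and 0 passed by edgeR. With a minimum count of 3 over all ages, 12 were tested, all 12 had a log2 fold change above 0 and 2 passed. These were *Tubb5* and, meeting the filter mainly through hyperoxic mice, *Pclaf*, where 0.2% of all genes tested passed. The summed level was 2015 to 7992 CPM (median 5289) in normoxic and 3961 to 12776 CPM (median 11056) in hyperoxic P14 mice, with 41.6% of the sum over all mice from the histone gene *H2afz*, and 4 of 6 hyperoxic mice were above all normoxic mice. *Top2a*, the topoisomerase that untangles DNA before division, had 0, 73.4 and 156 CPM in normoxia and 25.7, 292 and 557 CPM in hyperoxia (log2 fold change 1.82 ± 0.70, edgeR, adjusted p = 0.164). *Mki67*, a protein of the surface of dividing chromosomes, had 0, 146 and 311 CPM and 25.7, 288 and 594 CPM (0.99 ± 0.50, edgeR, adjusted p = 0.300). A UMI of *Mki67* was found in 20.8% of normoxic and 50.8% of hyperoxic P14 cells, and in 17.1% and 33.3% after thinning to 3000 UMIs. For *Top2a* the shares were 8.33% and 36.5%, and 2.44% and 27.0% after thinning. Per mouse, the share of cells with *Mki67* was 0, 13.8 and 62.5% in normoxia and 15.4, 51.5 and 76.9% in hyperoxia, so that the groups overlapped.

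*Ccnd2*, a D-type cyclin that drives cells into DNA synthesis, had too few UMIs for the count filter, and it is named here after its values were seen. It had 0 CPM in 4 of 6 normoxic P14 mice and at most 30.4 CPM, and in the hyperoxic mice 39.7, 179 and 186 CPM. The highest normoxic and the lowest hyperoxic mouse were close. With a minimum count of 3, 8 of 4678 genes passed at P14 (0.171%), among them *Ccnd2*, which met even this filter only through hyperoxic P14 mice, so that it had to differ and its test is not given. Outside P14 its highest level was 69.2 CPM. In the other cells of the P14 mice *Ccnd2* had a mean of 192 CPM in normoxia and 333 CPM in hyperoxia. Chemokines varied widely. *Ccl17*, which draws T cells through Ccr4, had medians of 78.0 CPM in normoxia and 422 CPM in hyperoxia (1.77 ± 0.59, edgeR, adjusted p = 0.107). *Cxcl10*, an interferon-induced chemokine, had 0 and 64.6 CPM as medians (3.41 ± 1.24, adjusted p = 0.136), and 5 of 20 cytokine and chemokine genes were tested with none passing.

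**Figure D4:**
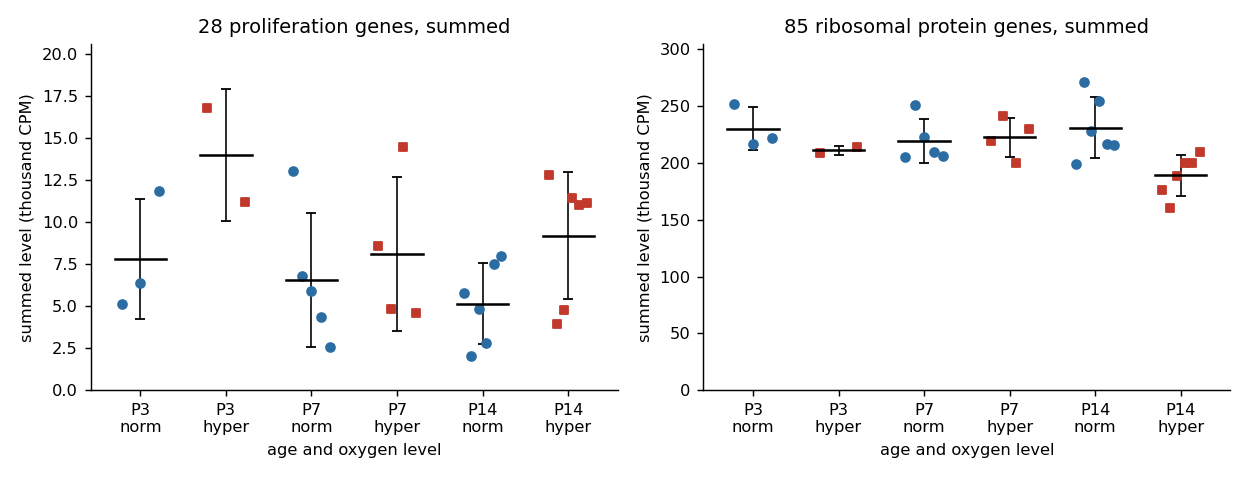
Summed level of 28 proliferation genes (left) and 85 ribosomal protein genes (right) in the DC1 cells of each mouse, in CPM divided by 1000, by age and oxygen, with mice as points, the mean as a line and the SD as error bars. At P14 the ribosomal sum is lower in hyperoxia with overlap, and 4 of 6 hyperoxic proliferation sums lie above all normoxic ones.

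Whether hyperoxia acted differently at P14 than at the earlier ages was tested as an interaction. *Lgals1* passed, as 1 of 1077 genes (0.0929%), with a difference in log2 fold change of 2.07 ± 0.37 (edgeR, adjusted p = 0.00502), and 125 genes had an unadjusted p below 0.05. With cells thinned to 3000 UMIs, no gene passed by edgeR. Leaving out hyperoxic mouse 5 of P3 left 1 mouse in that group, and 1521 genes were tested in place of 1077. Over 23 alternatives the difference for *Lgals1* was 1.79 to 2.22, and the call was kept in 21 of them. At P3 the level of *Lgals1* was 370, 385 and 1104 CPM in the 3 normoxic mice and 336 and 591 CPM in the 2 hyperoxic ones. At P7 it was 439 to 878 CPM in normoxia and 357 to 731 CPM in hyperoxia. Normoxic DC1 at P14, with at most 283 CPM, thus lay below all earlier mice, while hyperoxic P14 mice, with 476 to 1260 CPM, overlapped with the earlier ages. The other cells had a mean of 1192 CPM of *Lgals1* at the earlier ages, 434 CPM in normoxic and 1184 CPM in hyperoxic P14 mice. The next genes did not pass, such as *S100a6* (3.01 ± 0.80, adjusted p = 0.135), *H2-Aa* (-0.63 ± 0.16, adjusted p = 0.135) and *Ifngr1* (-1.17 ± 0.37, adjusted p = 0.135).

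Age was compared next, with P14 set against P3 and P7 together and oxygen as a covariate. Of 532 genes 22 passed (4.14%), 15 higher (2.82%) and 7 lower (1.32%) at P14, and 106 had an unadjusted p below 0.05. In normoxic mice only, 17 of 536 genes passed, 7 of them among the 22. For P14 against P7 only, 19 of 532 passed, 12 of them among the 22. *Wdfy4*, *Itgae*, *Naaa* and *Ppt1* of the DC1 identity list and the class II gene *H2-DMa* stood among those that rose, and *Plac8*, also listed as a monocyte marker, was the gene that fell most. For none of the 532 genes did all 12 P14 mice lie above (0%) or below (0%) all 14 earlier mice. As no pool held P14 and another age, age and pool cannot be told apart in any of these values. The paper names an unequal sex distribution at P3 and P7 as a limit, with an equal one at P14. Sex was not in the models or in the tests of shares. Over mice with at least 5 DC1 cells, P3 kept only normoxic mouse 3, and P7 kept normoxic mouse 4 and hyperoxic mice 2 and 4. With so few earlier mice and 1439 genes tested, that fit cannot decide whether the calls hold. The count of called genes was 12 without normoxic mouse 1 of P3 and 14 without normoxic mouse 3 of P7.

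*Wdfy4* had 64.1, 400 and 761 CPM at the earlier ages and 461, 752 and 1059 CPM at P14, where all 12 mice were above the median of the earlier ones (log2 fold change 1.04 ± 0.19, edgeR, adjusted p = 0.000782). *Itgae* had 28.5, 214 and 369 CPM and 183, 404 and 521 CPM (1.03 ± 0.21, edgeR, adjusted p = 0.00320), and 11 of 12 P14 mice were above the earlier median. *Naaa* had 485, 865 and 1263 CPM and 865, 1462 and 1831 CPM (0.78 ± 0.15, edgeR, adjusted p = 0.00113). Each of these ranges overlapped between the ages. *Ppt1*, a lysosomal thioesterase, rose with 0.94 ± 0.26 (edgeR, adjusted p = 0.0377). It kept its call in 13 of 25 alternatives, against 24 of 26 for *Wdfy4* and for *Naaa* and 23 of 25 for *Itgae*. These 4 were the genes that rose among the 12 of the DC1 identity list that were tested, where 2.82% of all genes tested rose. The median of the 12 was 0.47 against -0.01 over all genes. *H2-DMa*, which loads peptides onto MHC class II, was the single gene that rose among 7 tested class II genes (0.49 ± 0.12, edgeR, adjusted p = 0.0193), beside the same 2.82% of all genes.

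The other genes with the largest increases were the giant scaffold *Ahnak* (319 to 690 CPM in the medians, 1.28 ± 0.22, adjusted p = 0.000741), the chloride channel protein *Clic4* (1.16 ± 0.29), the matrix protein *Tgfbi* (1.14 ± 0.26), *Dazap2* (0.74 ± 0.20), the clathrin adaptor *Picalm* (0.73 ± 0.22) and the poly(A)-binding protein *Pabpc1* (0.70 ± 0.13), all by edgeR. *Rac1*, *Iqgap1*, *mt-Co1* and *Rpl5* also rose, below the 10 named by size. With a minimum count of 3, 15 of the 22 called genes kept their call, and *Rpl5* did not. *Itgae*, *Clic4*, *Tgfbi* and *Dazap2* met the count filter mainly through P14 mice, where they are high. At a minimum count of 3, which most earlier mice met as well, *Itgae*, *Clic4* and *Tgfbi* passed (edgeR, adjusted p = 0.00495, 0.0185 and 0.00915), while *Dazap2* and *Picalm* did not (adjusted p = 0.0650 and 0.0761).

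*Xcr1* itself had too few UMIs at the earlier ages for the count filter. Its level was 0, 77.3 and 266 CPM at P3 and P7 and 125, 282 and 746 CPM at P14, with all 12 P14 mice above the earlier median. With a minimum count of 3, 31 of 1997 genes passed between the ages (1.55%), among them *Sept3*, a septin that is also highest in DC1, with 1.52 ± 0.29 (edgeR, adjusted p = 0.00216), and *Xcr1*, which met this filter mainly through P14 mice, so that its test is not given. A UMI of *Xcr1* was seen in 35.6% of 73 earlier cells (95% exact binomial interval 24.7 to 47.7%) and in 74.8% of 111 P14 cells (65.6 to 82.5%). After thinning to 3000 UMIs the shares were 16.9% of 71 and 48.1% of 104 cells. Without thinning, the earlier groups ran from 7.14% of 14 normoxic P3 cells to 69.6% of 23 hyperoxic P7 cells. *Clec9a* had 46.5% and 47.1% of thinned cells, and its log2 fold change was 0.40 ± 0.27 (edgeR, adjusted p = 0.425). *Irf8* (0.32 ± 0.13, adjusted p = 0.178) and *H2-Ab1* (0.17 ± 0.10, adjusted p = 0.330) did not pass either. The intervals cover counting error only, since cells of a mouse share their source.

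The genes that fell with age were led by *Plac8*, a small cysteine-rich protein of myeloid cells that immature cells carry. It had 233, 686 and 1327 CPM at the earlier ages and 0, 206 and 827 CPM at P14 (-1.62 ± 0.42, edgeR, adjusted p = 0.0228). *Plac8* met the count filter mainly through earlier mice, where it is high. With a minimum count of 3, which most P14 mice also met, *Plac8* was still called lower by edgeR. *Plac8* gave 61.7% of the summed level of 8 monocyte markers in DC1, which was 366 to 1881 CPM at the earlier ages and 166 to 1096 CPM at P14. Of these markers *F13a1* had no UMI in DC1. *Npc2*, the lysosomal cholesterol carrier, had 432, 686 and 981 CPM and 197, 332 and 568 CPM (-0.95 ± 0.17, edgeR, adjusted p = 0.000741), and all 12 P14 mice were below the earlier median. The others were the sugar-phosphate enzyme *Taldo1* (-0.75 ± 0.16), *Rpl22l1* (-0.63 ± 0.16), the signal peptidase subunit *Spcs2* (-0.61 ± 0.18), which met the count filter mainly through earlier mice and did not pass with a minimum count of 3 (adjusted p = 0.0797), the actin-binding *Tmsb10* (-0.48 ± 0.10) and the ubiquitin gene *Ubb* (-0.36 ± 0.10). In the other cells *Npc2* had a mean of 1220 CPM at the earlier ages and 1146 CPM at P14, and *Plac8* stood there at 312 and 223 CPM.

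**Figure D5:**
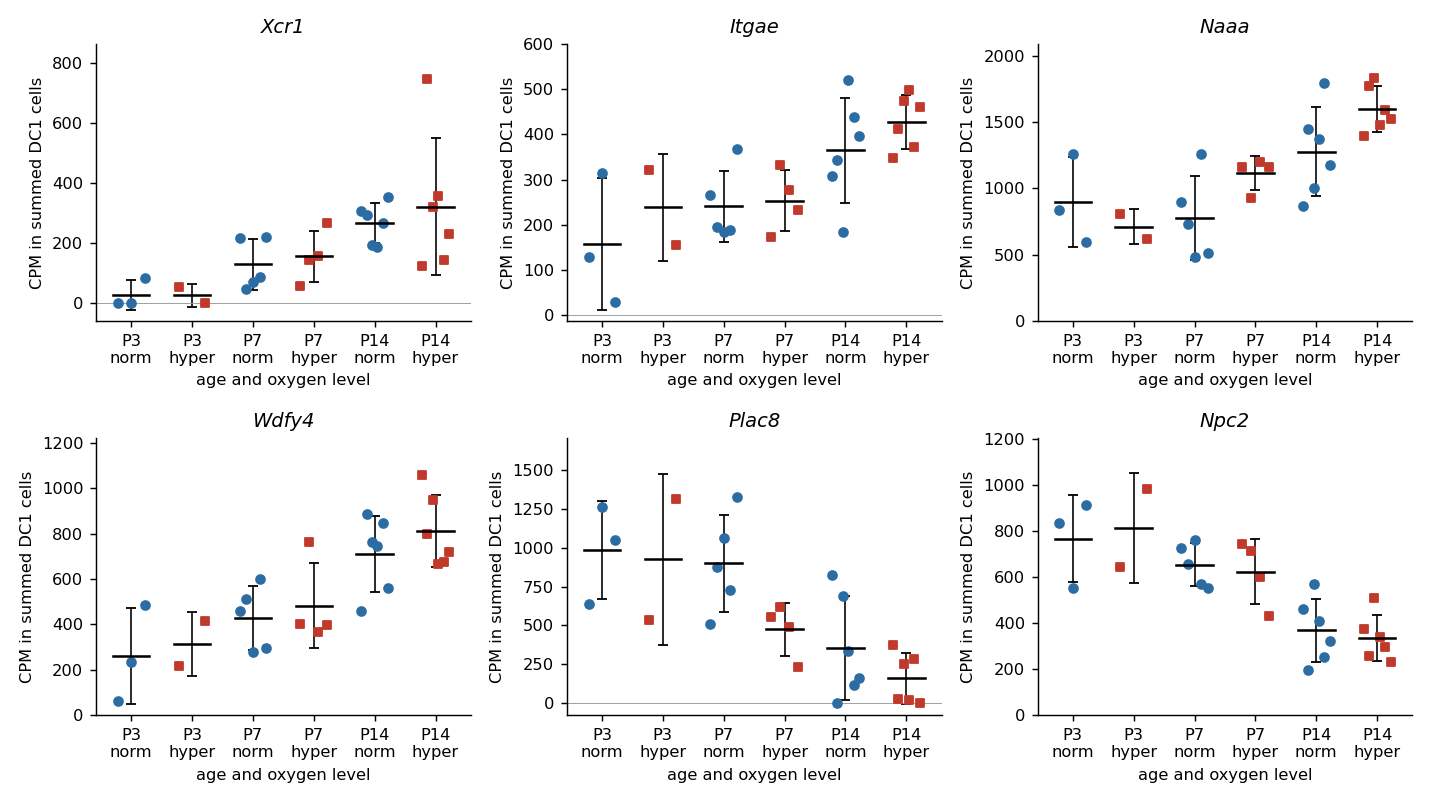
Level of 6 genes in the summed DC1 cells of each mouse, as CPM on linear axes, by age and oxygen, with mice as points, the mean as a line and the SD as error bars. *Xcr1*, *Itgae*, *Naaa* and *Wdfy4* are higher at P14 and *Plac8* and *Npc2* lower, with overlap between ages and with 3 and 2 mice in the P3 groups.

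The hyperoxia effect in DC1 was then compared with that in Int Mϕ and in monocytes (Mono) of the same mice. At P14, 570 of 3571 genes passed in Int Mϕ (16.0%) and 314 of 3345 in Mono (9.39%), types with 1874 and 2454 cells in all. Unlike in DC1, these 2 counts rest on the adjusted p alone, without the criterion on detection. They also come from fits of the 12 P14 mice alone. In DC1 such a fit, with the criterion on detection, called 11 of 963 genes. The effects differed between DC1 and Int Mϕ for 18 of 2887 genes (0.623%) and between DC1 and Mono for 4 of 3041 (0.132%). *Plet1* differed from Int Mϕ by 2.50 ± 0.60 on the log2 scale (edgeR, adjusted p = 0.0482), and in Int Mϕ it had a log2 fold change of 0.08 ± 0.33. *Ifngr1* differed by -1.18 ± 0.27 (edgeR, adjusted p = 0.0295), and its own log2 fold change was -0.03 ± 0.14 in Int Mϕ and -0.38 ± 0.12 in Mono.

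*Lgals1* rose in Int Mϕ too, with a log2 fold change of 1.27 ± 0.15, and the difference from the effect in DC1 did not pass (0.41 ± 0.27, edgeR, adjusted p = 0.614). In Mono it had 0.16 ± 0.17, and the difference from DC1 was 1.68 ± 0.24 (adjusted p = 0.000376). *Cdkn1a* had 0.93 ± 0.14 in Int Mϕ and 0.32 ± 0.12 in Mono, *S100a6* had 0.70 ± 0.21 and 0.61 ± 0.13, and *Tspo* had 0.89 ± 0.17 and 1.08 ± 0.12, and for none of the 3 did the difference from DC1 pass. *Cd74* fell in Int Mϕ (-0.73 ± 0.19, adjusted p = 0.0138) and differed from DC1 by 0.80 ± 0.18 (edgeR, adjusted p = 0.0295). *Batf3*, the transcription factor of DC1, fell in Int Mϕ (-1.04 ± 0.30, adjusted p = 0.0242), had 0.44 ± 0.32 in DC1, and differed by 1.60 ± 0.35 (adjusted p = 0.0295).

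Over all ages the effects differed for 4 of 2904 genes between DC1 and Int Mϕ (0.138%) and for 4 of 2651 between DC1 and Mono (0.151%). *Fabp5*, a fatty acid carrier that rises in lipid-handling macrophages, differed by -4.26 ± 0.63 from Int Mϕ and by -2.37 ± 0.54 from Mono (edgeR, adjusted p = 0.000118 and 0.0454). In DC1 it had 24.2, 122 and 769 CPM in normoxia and 19.1 to 33.2 CPM in hyperoxia at P7, and medians of 17.5 CPM in normoxia and 22.4 CPM in hyperoxia at P14. The scavenger receptor *Cd36* differed from Mono by 1.76 ± 0.31 (adjusted p = 0.00242), and *Cd24a* by -1.63 ± 0.36 (adjusted p = 0.0454).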

How the data were processed

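Lungs were dissociated, mice of a pool were labeled with lipid-bound sample barcodes and cells were profiled with 10x 3' chemistry. The authors aligned the reads with Cell Ranger 3.0.2 to mm10, assigned cells to mice by sample barcode, removed cells with several barcodes and deposited whole-number UMI counts per gene and cell, not normalized, with an annotation of mouse, age, oxygen and cell type. The same annotation, as deposited, gives the percent of mitochondrial UMIs in each cell. Mice were grouped by that annotation, since the sample labels describe libraries of several mice. The members and gene lists were chosen with earlier results of these data known.

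Counts were summed over the DC1 cells of each of 26 mice with at least 3 such cells and tested with the quasi-likelihood test of edgeR 4.0.16 (R 4.3.3, limma 3.58.1) after its expression filter with a minimum count of 10. A gene was called at a Benjamini-Hochberg adjusted p below 0.05 when a UMI was found in at least 10% of DC1 cells of the groups compared. Named were up to 10 called genes per direction by size of change, called members of the lists, the 5 markers and, where fewer than 3 genes passed in a direction, the 3 of smallest p, at a log2 CPM of at least 6. A gene that passed the filter only through the group where it is high had to differ. Shares were tested by exact permutation over mice (numpy 2.4.6). The block was the pool. Of 5 pools 1 held P3 and P7 mice and was loaded as 2 of the 6 libraries, and each pool held 3 mice of either oxygen level for each of its ages. Alternatives were DESeq2 1.42.0, no filter, other cell minimums, cells thinned to 3000 UMIs, single mice left out (each P3 and P7 mouse of the 26, and the P14 mouse with the fewest DC1 cells of either oxygen level) and, chosen after seeing the data, a minimum count of 3 and cells with at least 50% of their own sample barcode. No doublet caller was run. Intervals are 95% exact binomial. Results for some genes are not reported here.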

Additional observations from a re-analysis of the deposited data

Results flagged for a closer look

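In 202 groups of 4 to 6 mice, 13 values lay far from the rest of their group, where chance alone gives about 1 in 20. Hyperoxic mouse 2 of P14, which had 4 DC1 cells, held 4 of them, with 2572 CPM of *Ckb*, 2598 CPM of *Rps13*, 1029 CPM of *Ppt1* and 746 CPM of *Xcr1*. Hyperoxic mouse 2 of P7 held 3, with 761 CPM of *Wdfy4*, 785 CPM of *Ppt1* and 928 CPM of *Naaa*. The others were 2456 CPM of *Rpl17* in hyperoxic mouse 3 of P14, and in normoxic P14 mice 3.83% mitochondrial UMIs and 614 CPM of *Tgfbi* in mouse 2, 515 CPM of *Cadm1* in mouse 6, 1173 CPM of *Ppt1* in mouse 1 and 818 CPM of *Picalm* in mouse 4.

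The hyperoxia effect on *Lgals1* in DC1 differed between P14 and the earlier ages by 2.07 on the log2 scale. Between DC1 and Int Mϕ over all ages, the effects differed for *Fabp5* (-4.26), *Xlr* (1.67), *Anapc5* (1.48) and *Cst3* (0.54), and between DC1 and Mono for *Cd36* (1.76), *Cd24a* (-1.63), *Ifi27l2a* (-2.10) and *Fabp5* (-2.37). At P14 the effect was higher in DC1 than in Int Mϕ for *Ccnd2* (3.97), *Klrd1* (3.15), *Plet1* (2.50), *Tnni2* (2.11), *Xlr* (1.94), *Batf3* (1.60), *Eps8* (1.52), *Unc119* (1.33), *Cd74* (0.80) and *Cst3* (0.52). It was lower in DC1 for *Apoe* (-2.07), *Nr4a3* (-1.76), *Epsti1* (-1.73), *Nr4a2* (-1.68), *Ly6e* (-1.40), *Lyz2* (-1.28), *Ifngr1* (-1.18) and *Fth1* (-0.63). Between DC1 and Mono at P14 it differed for *Ccnd2* (3.98), *Lgals1* (1.68), *Mt1* (-2.09) and *Ifi203* (-1.99). These are differences in log2 fold change with an adjusted p below 0.05 in edgeR. *Ccnd2* had 0 CPM in DC1 of 4 of 6 normoxic P14 mice, so that its values are given as a description and not as a test.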

How the results depend on the processing

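Counts of called genes moved with the processing, and the cause was not tested where none is named. Over all ages, hyperoxia gave 37 genes with no filter on low counts, 4 with a minimum count of 3, 2 without cells of weak sample barcode, and 0 to 1 with single mice left out. At P14 there were 35 genes with DESeq2 (15 of them among the 17), 40 with no filter, 31 without cells of weak sample barcode and 32 with the pool as a replicate block in P14 mice only. There were 11 in P14 mice only without the block, 9 there with a minimum count of 3, 9 over mice with at least 1 DC1 cell, 8 with a minimum count of 3, 6 over mice with at least 5 cells, and 1 with thinned cells, with 9 to 21 when single mice were left out (of the P14 mice only hyperoxic mouse 2 and normoxic mouse 4). *Fam129a* lost its call under the block (adjusted p = 0.0521 by edgeR). Between ages there were 130 genes with no filter, 46 over mice with at least 1 cell, 8 with thinned cells, 0 of 1439 by edgeR over mice with at least 5 cells, and 12 to 25 with single mice left out. The difference between P14 and earlier ages gave 4 genes with DESeq2, 6 with no filter, 0 of 400 by edgeR with thinned cells (41 at an unadjusted p below 0.05), and 0 to 2 with single mice left out.

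The ratio of hyperoxic to normoxic DC1 shares changed direction at P3 with edgeR on cell numbers (0.917) and at P7 with it (1.05) and without the mouse of fewest cells (1.08), none of which passed. The P14 to P3 ratio in normoxia as a percentage of immune cells was 2.21 and no longer passed, and the P14 to P7 ratio in hyperoxia was 2.60 by edgeR and passed. Uncalled log2 fold changes that changed sign were *Irf8* with hyperoxia in thinned cells (-0.15), *H2-Ab1* with hyperoxia (-0.11) and *Irf8* with age (-0.011) over mice with at least 5 cells, and, without normoxic mouse 3 of P3, *Xcr1* (-1.77) and *Irf8* (-0.23) in the difference between ages, whose ranges with single mice left out were -1.77 to 2.14 and -0.23 to 0.30. At P14 *Lgals1* kept its call in 27 of 27 alternatives, *S100a6* in 26 of 27, *Ifngr1* in 26 of 27, *Cadm1* in 17 of 26 and *Fam129a* in 15 of 26. Among the named age genes, the call was kept least often for *Picalm* (8 of 25), *Spcs2* (10 of 21) and *Dazap2* (11 of 23). *Ubb* (13 of 26) and *Ppt1* (13 of 25) came next. With 12680 UMIs in the shallowest sum, genes of low level could not be tested.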

Other observations

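*Cd207* (langerin), an endocytic receptor found on CD103+ lung dendritic cells, had its highest mean of all types in DC1, with 34.4 CPM and a UMI in 17.9% of DC1 cells, against 1.49% of DC2 cells and 0 UMIs in general capillary cells. It was chosen after its values were seen.

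Summed levels of other cells' markers in DC1 at P14 had medians, in normoxia and hyperoxia, of 75.0 and 116 CPM for a general list of DC2 genes. *Mgl2* gave 50.3% of that sum, and it stood at 30.4 CPM in DC1 and 5.94 CPM in the DC2 cluster. The sum thus does not measure RNA of the DC2 cluster. Medians were 173 and 169 CPM for plasmacytoid dendritic cells, 95.6 and 57.2 CPM for interstitial macrophages, 451 and 639 CPM for monocytes and 24.9 and 22.9 CPM for neutrophils. The highest neutrophil sum was 84.8 CPM in normoxia and 731 CPM in hyperoxia, and the highest interstitial macrophage sum 781 and 83.6 CPM. With a minimum count of 3 at P14, 2 neutrophil markers were tested (median log2 fold change 2.57), 1 interstitial macrophage marker (-1.93) and 1 B cell marker (-1.72), each at an unadjusted p below 0.05 and none passing by edgeR. The other median sums were 136 and 48.8 CPM for B cells, 672 and 546 CPM for alveolar epithelium, 801 and 702 CPM for club cells, 214 and 214 CPM for fibroblasts, 59.9 and 50.6 CPM for endothelium, 0 and 4.47 CPM for erythroid cells, and 0 in both for T and NK cells, where 5 of 8 markers had no UMI.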
